A study of Mus musculus with 16 samples.

Results

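A set of 10 genes of serine synthesis and of the ATF4 stress response were followed across 4 mouse mammary tumour cell lines. The members were the 10 symbols Phgdh, Psat1, Psph, Shmt1, Shmt2, Mthfd2, Asns, Atf4, Trib3 and Chac1, chosen by name, with every probe that the platform annotation assigns to them. They had 18 of the 45281 probes on the array, and 10 of the 19057 genes named there. Of the 10 members, 9 passed the detection filter and were tested among 10724 genes. Psph was the exception.

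MI6 and MI7 are lines from mammary tumours of mice transgenic for d16HER2, a splice form of the human receptor that lacks exon sequence next to the membrane, and WTHER2-1 and WTHER2-2 are lines from tumours of mice transgenic for WT HER2, the full-length receptor. All 4 are therefore HER2-transgenic tumour lines, and no normal mammary cell or line without a transgene was among them. The labels give neither the promoter of the transgenes, nor the age of the mice, nor whether a line is a single clone. Each line had 4 arrays, which makes 8 arrays for d16HER2 and 8 for WT HER2, and nothing in the labels says that the arrays of a line came from separate cultures, so that their spread may be technical.

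Serine is made from a glycolytic intermediate in successive steps, catalysed by the dehydrogenase PHGDH, the aminotransferase PSAT1 and the phosphatase PSPH. The hydroxymethyltransferases SHMT1, in the cytosol, and SHMT2, in mitochondria, split serine into glycine and a one-carbon unit carried by folate, which MTHFD2 oxidises in mitochondria. ATF4 is a transcription factor whose protein is made when amino acids run short or misfolded proteins collect in the endoplasmic reticulum. It is known to raise transcription of the serine pathway, of the asparagine synthetase ASNS, of the pseudokinase TRIB3 and of the glutathione-degrading enzyme CHAC1. It does so through composite sites for C/EBP and ATF proteins. Dependence on PHGDH is known to differ among breast tumours.

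The bases just upstream of the start of Phgdh are shown because that gene carried the transgene difference, and those of Asns and Chac1 because these were the members with a match to the core of a C/EBP-ATF site. RefSeq promoter entries (build GRCm38.p6) were found for all 10 members, 11 entries in all since Psat1 had a pair. The 250 bases before each start were searched for TGATGNAA, which reads TTNCATCA on the other strand. A match was found for 2 of the 10 genes and in 3.45% of all 32851 promoter entries. In Asns the letters TGATGAAA lay 23 to 16 bases before the start, and in Chac1 the letters TTGCATCA lay 193 to 186 bases before it. A match in letters is a description and not a site in use. Matches are in capitals, and each sequence runs 5′ to 3′ on the strand of its gene.
Phgdh, chr3:98339970-98340219, minus strand: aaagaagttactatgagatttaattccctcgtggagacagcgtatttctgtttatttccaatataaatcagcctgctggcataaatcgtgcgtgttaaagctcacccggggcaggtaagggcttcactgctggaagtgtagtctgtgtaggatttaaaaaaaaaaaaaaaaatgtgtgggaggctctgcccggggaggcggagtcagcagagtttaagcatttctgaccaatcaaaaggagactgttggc
Asns, chr6:7693210-7693459, minus strand: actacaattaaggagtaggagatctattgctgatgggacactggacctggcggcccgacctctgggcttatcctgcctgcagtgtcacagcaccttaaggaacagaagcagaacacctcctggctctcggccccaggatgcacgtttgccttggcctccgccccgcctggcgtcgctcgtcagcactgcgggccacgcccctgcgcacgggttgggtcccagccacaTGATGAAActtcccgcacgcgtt
Chac1, chr2:119350992-119351241, plus strand: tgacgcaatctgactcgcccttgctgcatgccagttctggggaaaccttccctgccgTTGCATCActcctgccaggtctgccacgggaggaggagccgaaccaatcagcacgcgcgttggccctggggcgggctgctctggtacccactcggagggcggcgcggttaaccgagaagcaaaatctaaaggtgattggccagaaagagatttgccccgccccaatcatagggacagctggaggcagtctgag

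Levels are log2 intensities after background correction and quantile normalization, and a mean ± SD of a line covers its 4 arrays. Where a gene had several probes, its brightest represents it. Between 35.8% and 42.4% of probes were detected per array, and median raw intensity was 91.8 to 104.8 on the d16HER2 arrays and 83.5 to 148.7 on the WT HER2 arrays. The d16HER2 lines shared BeadChips 1 and 2, while WTHER2-2 was on BeadChips 3 and 4 and WTHER2-1 on BeadChips 5 and 6. No BeadChip held both transgenes, so that a difference between transgenes cannot be told apart from one between BeadChips. The WTHER2-2 arrays of BeadChip 4 stood apart from the other arrays of that line. Their mean over 9 epithelial markers was 8.41 and 6.47, against 11.52 and 11.41 on BeadChip 3, and their mean over 6 fibroblast markers was 12.37 and 11.81, against 8.32 and 8.51. In the d16HER2 lines the epithelial mean ran from 11.706 to 11.997 and the fibroblast mean from 5.09 to 5.53. Of 10 epithelial markers 9 were detected on every array of MI6 and of MI7, 8 for WTHER2-1 and 5 for WTHER2-2, and Krt19 was detected in no line. Of 10 fibroblast markers 0 were detected on every array of MI6, 1 of MI7, 2 of WTHER2-1 and 6 of WTHER2-2. Among the markers the epithelial Epcam was separated as higher in the d16HER2 lines (1.54), and the fibroblast Col6a1 and Pdgfra as lower, without a call for any at line level. Between the WT HER2 lines the fibroblast Dcn (-6.64) and Col1a1 (-4.01) were called lower, and the macrophage marker Cd14 higher (3.17), in WTHER2-1. The other detected macrophage, endothelial and adipocyte markers, Csf1r, Tek, Kdr and Lep, had no call. Lum and Fap were detected in no line. The macrophage genes Ptprc, Adgre1, Lyz2 and Itgam and the endothelial genes Pecam1, Cdh5 and Emcn were also undetected in all 4 lines. So were the adipocyte genes Plin1, Cidec and Fabp4. In RNA from whole cultures, fewer cells of a type and less RNA per cell cannot be told apart.

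Phgdh, the first enzyme of serine synthesis, was far lower in the d16HER2 lines. It measured 6.82, 8.89, 8.84 and 7.37 on replicates 1 to 4 of MI6 and 6.74, 7.66, 6.97 and 6.92 on those of MI7, against 9.91, 10.46, 10.60 and 10.23 for WTHER2-1 and 9.94, 10.06, 11.26 and 12.15 for WTHER2-2. The highest d16HER2 array, at 8.89, lay below the lowest WT HER2 array, at 9.91, so that the arrays of the transgenes did not overlap. Phgdh was the only one of the 9 members of which this was true. Of all genes 11.6% lay apart in either direction, and 4.73% in that of Phgdh. The raw intensity ran from 164.1 to 618.1 on the d16HER2 arrays and from 886.0 to 2948 on the WT HER2 arrays, and the probe was detected on all 16 arrays. It is the only probe of the gene.

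The line means of Phgdh were 7.98 ± 1.05 for MI6 and 7.07 ± 0.41 for MI7, against 10.30 ± 0.30 for WTHER2-1 and 10.85 ± 1.05 for WTHER2-2 (SD, n = 4 each). The mean difference, d16HER2 minus WT HER2, was -3.05 ± 0.43 (limma standard error, 2 lines against 2), which is 8.27-fold, and ranked 110th from the lowest among the 10724 genes. With limma fitted over the 16 arrays, Phgdh was lower in all 4 pairs of a d16HER2 and a WT HER2 line, by 4.99-fold to 13.7-fold, with Benjamini-Hochberg adjusted p from 3.62e-05 to 0.00245. Genes whose 4 pairs all went one way, each with an adjusted p under 0.05 and at least 2-fold, are referred to as separated. Phgdh was the 1 member so called, where 2.46% of all genes were separated as lower, 3.06% as higher and 5.52% in either direction. With the line as the replicate it did not pass (limma adjusted p = 0.0837). Of the 9 members 0 passed this line-level test, as did 0.494% of all genes. At an unadjusted p under 0.05 the line-level test had 3 members, Phgdh, Psat1 and Trib3, and 19.6% of all genes. With 2 lines on each side the smallest p of an exact permutation test is 0.333, so that the p-values rest on the model of limma.

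**Figure D1:**
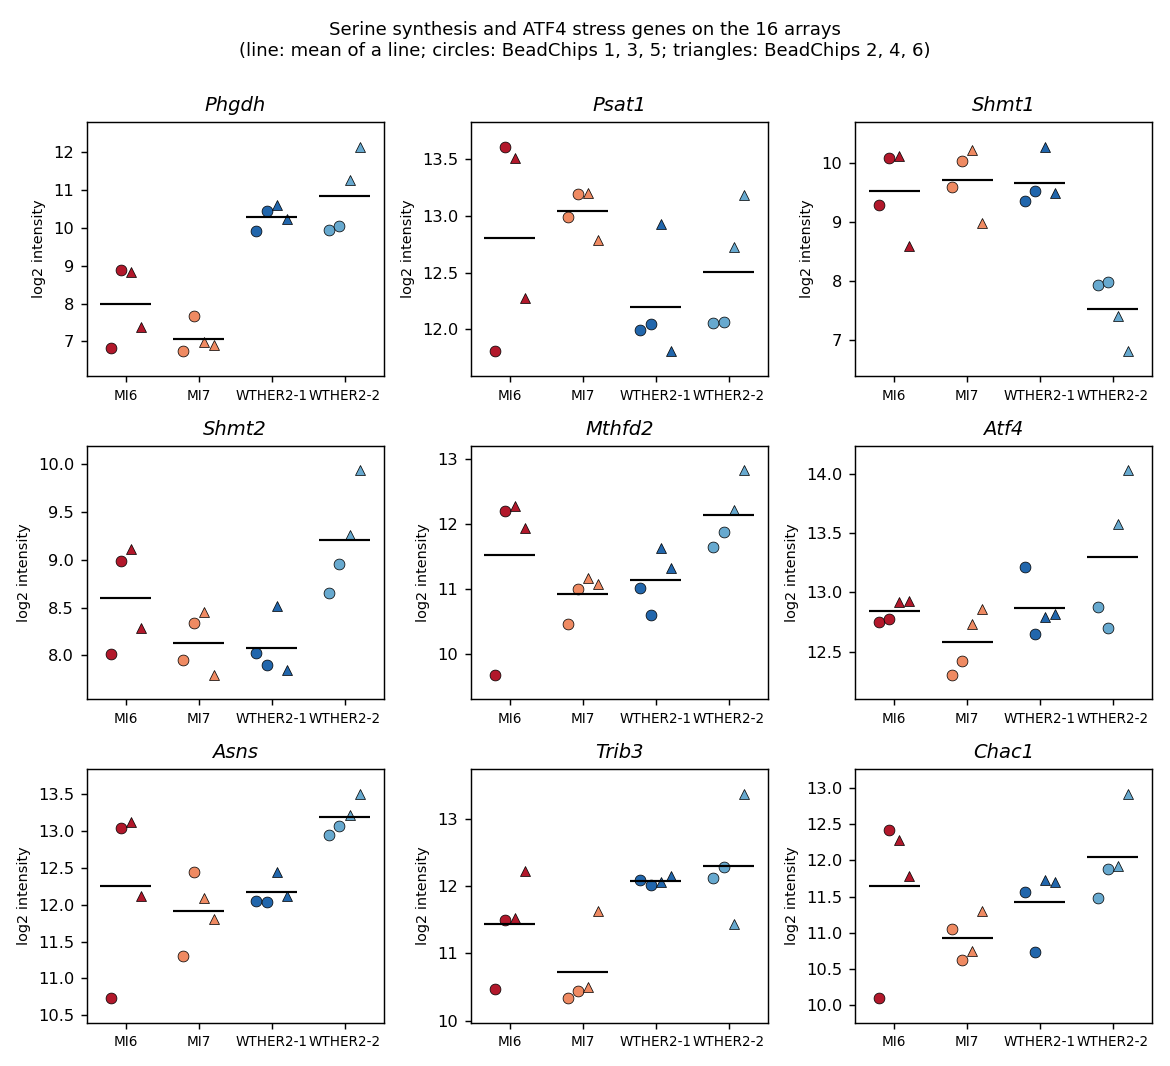
Level of the 9 measured genes on each of the 16 arrays, as log2 intensity on the vertical axis (each panel has its own range), by line on the horizontal axis. Circles are arrays of BeadChips 1, 3 and 5 and triangles those of BeadChips 2, 4 and 6, and the bar is the mean of a line. Phgdh lies at 6.74 to 8.89 in the d16HER2 lines and at 9.91 to 12.15 in the WT HER2 lines, and in the other 8 panels the arrays of the transgenes overlap.

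The next enzyme of serine synthesis had a difference of the opposite sign, and the last could not be measured. Psat1, the aminotransferase that acts on the product of PHGDH, measured 11.81, 13.61, 13.51 and 12.28 for MI6 and 12.99, 13.19, 13.20 and 12.78 for MI7, against 11.995, 12.05, 12.92 and 11.81 for WTHER2-1 and 12.06, 12.06, 12.72 and 13.19 for WTHER2-2. Its arrays overlapped between transgenes. The mean difference was 0.57 ± 0.19 (limma adjusted p = 0.228), of the opposite sign to that of Phgdh, and all 4 line pairs were positive without any being called (0.29 to 0.84). On MI6 replicate 1 both genes were at the bottom of their line, at 6.82 for Phgdh and 11.81 for Psat1. Psph, the phosphatase of the last step, was detected on 0 of the 16 arrays at its only probe, with detection p from 0.375 to 0.975. Its values, 4.57 to 4.84, are those of background and give no comparison.

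Shmt1 was lower in WTHER2-2 than in each of the other 3 lines. Shmt1, the cytosolic enzyme, measured 9.28, 10.07, 10.12 and 8.59 for MI6 and 9.60, 10.03, 10.22 and 8.98 for MI7, against 9.35, 9.52, 10.27 and 9.48 for WTHER2-1 and 7.94, 7.98, 7.41 and 6.81 for WTHER2-2. At this brightest probe every WTHER2-2 array was below every array of the other 3 lines. WTHER2-1 exceeded WTHER2-2 by 2.12 ± 0.37, MI6 by 1.98 ± 0.37 and MI7 by 2.17 ± 0.37 (limma adjusted p = 0.000556, 0.000719 and 0.000362). Against WTHER2-1 the d16HER2 lines differed by -0.14 ± 0.37 and 0.05 ± 0.37. The dimmer Shmt1 probe gave 1.48 for WTHER2-1 minus WTHER2-2 and 1.02 and 1.32 for MI6 and MI7 minus WTHER2-2. There the d16HER2 lines overlapped with WTHER2-2. The lowest arrays of MI6 and MI7, at 5.63 and 5.65, lay within its range of 5.15 to 6.31.

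Shmt2, the mitochondrial enzyme, had its highest mean in that line. It measured 8.01, 8.99, 9.12 and 8.29 for MI6 and 7.95, 8.34, 8.45 and 7.80 for MI7, against 8.03, 7.90, 8.51 and 7.85 for WTHER2-1 and 8.65, 8.96, 9.26 and 9.94 for WTHER2-2. WTHER2-2 was the highest line, with an overlap with MI6. WTHER2-1 was lower than WTHER2-2 by -1.13 ± 0.30 and MI7 by -1.07 ± 0.30 (limma adjusted p = 0.00877 and 0.0105), and MI6 differed by -0.60 ± 0.30 (adjusted p = 0.125). Neither call held without the BeadChip 4 arrays of WTHER2-2 (-0.74 and -0.67), nor without replicate 4 of that line alone (-0.89 and -0.83). In the authors' deposited normalized table, with median scaling and without background correction (-0.94 and -0.90) both also fell short of 2-fold. The dimmer Shmt2 probe gave -0.62 for WTHER2-1 minus WTHER2-2 and -1.14 and -1.19 for MI6 and MI7 minus WTHER2-2. Against WTHER2-1 it gave -0.52 and -0.57, where the brightest probe gave 0.53 and 0.06, so that the probes disagree there. Its mean difference between transgenes was -0.86 (limma adjusted p = 0.254), against -0.27 at the brightest probe. Mthfd2, the mitochondrial folate enzyme, measured 9.68, 12.21, 12.28 and 11.95 on the MI6 arrays and 10.46, 11.00, 11.17 and 11.09 on the MI7 arrays, against 11.02, 10.60, 11.64 and 11.33 on those of WTHER2-1 and 11.66, 11.88, 12.23 and 12.84 on those of WTHER2-2. At this brightest probe every MI7 and every WTHER2-1 array lay below every WTHER2-2 array, and MI6 overlapped with all 3 other lines. The brightest probe averaged 11.53 ± 1.24 for MI6 and 10.93 ± 0.32 for MI7, against 11.15 ± 0.44 for WTHER2-1 and 12.15 ± 0.51 for WTHER2-2 (SD, n = 4 each). Its mean difference between transgenes was -0.42 ± 0.44 (adjusted p = 0.657). At the dimmer Mthfd2 probe WTHER2-1 reached 9.26, above the lowest WTHER2-2 array at 8.30, so that these lines overlapped. That probe gave -0.60 for WTHER2-1 minus WTHER2-2, and -0.58 and -1.07 for MI6 and MI7 minus WTHER2-2. Its mean difference between transgenes was -0.53.

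Atf4 itself differed by under 2-fold in every line pair, at most by -0.72 ± 0.24 in MI7 minus WTHER2-2 (limma adjusted p = 0.0254). That difference was -0.21 without the BeadChip 4 arrays of WTHER2-2, and -1.22 and called without those of BeadChip 3 (adjusted p = 8.36e-05). Its brightest probe averaged 12.84 ± 0.09 for MI6 and 12.58 ± 0.26 for MI7, against 12.87 ± 0.24 for WTHER2-1 and 13.30 ± 0.62 for WTHER2-2 (SD, n = 4 each). The difference between transgenes was -0.37 ± 0.22 (limma adjusted p = 0.434) and at the other probe -0.34. The highest values, 13.58 and 14.03, were those of the WTHER2-2 arrays of BeadChip 4, against 12.88 and 12.70 on BeadChip 3. Since ATF4 is regulated largely through translation of its messenger RNA, these levels are not levels of the protein.

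Trib3 had the most negative mean difference of Asns, Trib3 and Chac1. It measured 10.47, 11.50, 11.53 and 12.22 for MI6 and 10.33, 10.44, 10.50 and 11.63 for MI7, against 12.09, 12.02, 12.06 and 12.16 for WTHER2-1 and 12.13, 12.28, 11.44 and 13.37 for WTHER2-2. The transgenes overlapped. Replicate 3 of WTHER2-2 lay below replicates 2, 3 and 4 of MI6 and replicate 4 of MI7. Replicate 4 of MI6, at 12.22, also lay above every WTHER2-1 array and above replicate 1 of WTHER2-2. The mean difference was -1.11 ± 0.30 (adjusted p = 0.175), and MI7 was called lower than WTHER2-1 (-1.35 ± 0.40, adjusted p = 0.0175) and WTHER2-2 (-1.58 ± 0.40, adjusted p = 0.0057). MI6 differed from them by -0.65 and -0.87 without a call. The other Trib3 probes gave mean differences of -1.34 and -1.36, and between -1.05 and -1.64 in every line pair. The call against WTHER2-1 did not hold without MI7 replicate 1 (-1.22), without MI7 replicate 2 (-1.26) or with the BeadChip as a random block.

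Asns measured 10.73, 13.05, 13.11 and 12.12 for MI6 and 11.30, 12.44, 12.10 and 11.81 for MI7, against 12.05, 12.04, 12.45 and 12.12 for WTHER2-1 and 12.94, 13.07, 13.22 and 13.51 for WTHER2-2. WTHER2-2 was the highest line, and replicates 2 and 3 of MI6 reached into its range. MI7 was lower than WTHER2-2 by -1.27 ± 0.40 (adjusted p = 0.0198), and the mean difference between transgenes was -0.59 ± 0.40 (adjusted p = 0.494). The other Asns probes gave mean differences of -0.74 and -0.65. The call of MI7 against WTHER2-2 did not hold without MI7 replicate 1 (-1.07), without the BeadChip 4 arrays (-1.10) or with the BeadChip as a random block. Chac1 measured 10.10, 12.42, 12.28 and 11.78 for MI6 and 11.05, 10.63, 10.74 and 11.30 for MI7, against 11.57, 10.73, 11.72 and 11.70 for WTHER2-1 and 11.48, 11.88, 11.92 and 12.92 for WTHER2-2. Both the lowest d16HER2 value and a value second to one WTHER2-2 array belonged to MI6, and the mean difference was -0.45 ± 0.36 (adjusted p = 0.561).

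Counted by pair, MI7 against WTHER2-2 had the most called members. There 5 were lower in MI7, Phgdh, Shmt2, Mthfd2, Asns and Trib3, and 1 was higher, Shmt1, where 9.48% of all genes were lower, 10.6% higher and 20.1% called in all. MI6 against WTHER2-2 had 1 lower, Phgdh, and 1 higher, Shmt1, where 9.22% of all genes were lower, 10.7% higher and 19.9% called in all. MI7 against WTHER2-1 had 2 lower, Phgdh and Trib3, where 6.92% of all genes were lower, 7.6% higher and 14.5% called in all. MI6 against WTHER2-1 had 1 lower, Phgdh, where 7.13% of all genes were lower, 8.53% higher and 15.7% called in all. The pairs share lines, so that these counts are not independent. The median difference of the 9 members was -1.12 for MI7 and -0.60 for MI6 against WTHER2-2, and -0.25 and 0.09 against WTHER2-1, while that of all genes was between 0.02 and 0.03 in each pair. Of the 6 calls in MI7 against WTHER2-2, Phgdh (-2.93), Shmt1 (1.75) and Trib3 (-1.47) were left without the BeadChip 4 arrays. Mthfd2 (-1.22 ± 0.46, adjusted p = 0.0474) was called in 10 of the 26 alternatives tried.

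**Figure D2:**
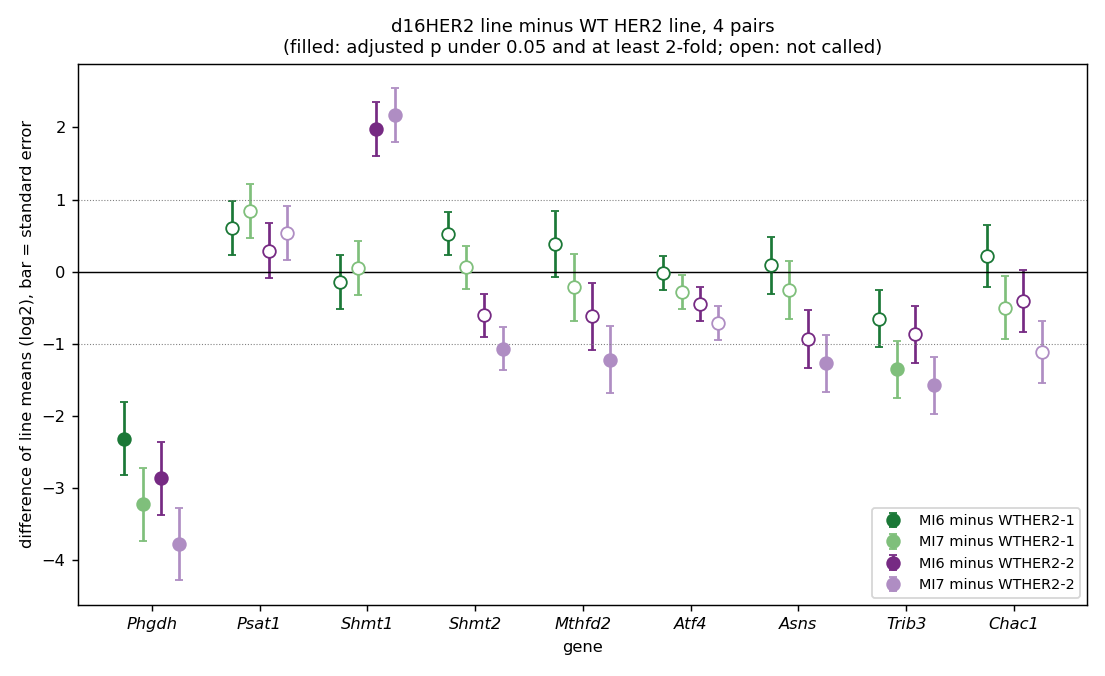
Difference of line means on the log2 scale, d16HER2 line minus WT HER2 line, for each gene and each of the 4 line pairs, with the limma standard error as the bar. Filled points had an adjusted p under 0.05 and at least 2-fold (dotted lines), and open points did not. Phgdh has 4 filled points between -2.32 and -3.78, and Shmt1 has its filled points against WTHER2-2 only, at 1.98 and 2.17.

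Lines of the same transgene were compared in the same way. MI6 against MI7 had 0 members called in limma, with 0.504% of all genes higher, 0.681% lower and 1.18% called in all. The smallest unadjusted limma p among the members was 0.0909, for Phgdh. The share of all genes with an unadjusted p under 0.05 was not counted for this pair. The differences ran from -0.24 for Psat1 to 0.91 ± 0.50 for Phgdh (adjusted p = 0.70). Within BeadChip 1 the difference of Phgdh was 0.66 and within BeadChip 2 it was 1.16. WTHER2-1 against WTHER2-2 had 2 members called, Shmt1 as higher and Shmt2 as lower in WTHER2-1, with 8.17% of all genes higher, 7.7% lower and 15.9% called in all. Of those genes 51.5% were higher in WTHER2-1, and 68.9% with median scaling in place of quantile normalization, which put the median of all genes at 0.23, against 0.02. Phgdh differed by -0.55 ± 0.50 (adjusted p = 0.421), by 0.30 without the BeadChip 4 arrays, and by -1.40 without those of BeadChip 3, where it was called (adjusted p = 0.0348). Asns (-1.02 ± 0.40) and Mthfd2 (-1.002 ± 0.46) missed the threshold (adjusted p = 0.0596 and 0.106), and were both called without MI6 replicate 1. Asns was also called without MI6 replicate 3 (adjusted p = 0.0466).

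By the median of their ranges, the members varied more among arrays of one line than genes in general, above all in MI6. The median of their ranges over the 4 arrays was 1.80 in MI6, against 0.46 over all genes, and 8 of the 9 members had a range of at least 1, as did 10.8% of all genes. In WTHER2-2 it was 1.28 against 0.77 with 8 of 9 over 1 (35.2% of all genes). It was 0.71 against 0.53 in MI7, with 3 of 9 over 1 (12.8% of all genes). In WTHER2-1 it was 0.69 against 0.51, with 2 of 9 over 1 (15.5% of all genes). Not every member varied so: the range was 0.18 for Atf4 in MI6 and 0.14 for Trib3 in WTHER2-1. MI6 replicate 1 was the lowest of its line for 8 of the 9 members, all but Shmt1, and for 26.9% of all genes. Relative to the line mean the value there was -1.85 for Mthfd2, -1.55 for Chac1, -1.52 for Asns and -1.16 for Phgdh. WTHER2-2 replicate 4 was the highest of its line for 8 of the 9, again all but Shmt1, and for 34.8% of all genes. That array had the lowest median raw intensity (83.5) and the lowest share of detected probes (35.8%) of any array. In raw intensity Asns measured 7989 there, below replicates 2 and 3 of the line, at 8297 and 8660. Phgdh, Psat1, Shmt2, Mthfd2, Atf4, Trib3 and Chac1 were highest there in raw intensity too. WTHER2-1 replicate 3 was the highest of its line for 7 (37.8% of all genes). Trib3 and Atf4 were instead highest on replicate 4 in MI6 and in MI7.

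The mean of the 12 measured cell cycle genes also differed among these arrays. All 12 were higher on average in the lines with d16HER2 (median 0.78), with 0 separated, where 5614 of all 10724 genes were higher. The replication genes Mcm3 and Mcm6 differed most, by 1.35 ± 0.60 and 1.15 ± 0.35 (limma adjusted p = 0.325 and 0.204). The list mean was 9.40, 10.74, 10.63 and 8.82 on replicates 1 to 4 of MI6 and 10.28, 10.79, 10.72 and 9.51 in MI7, against 9.02, 9.52, 10.75 and 9.10 for WTHER2-1 and 9.49, 9.27, 8.98 and 8.53 for WTHER2-2. In MI6 it was high on replicates 2 and 3, as were Phgdh, Psat1 and Asns. In MI7 it was highest on replicate 2, as were Phgdh and Asns, while Psat1 was highest on replicate 3. In WTHER2-1 it was highest on replicate 3, as were Phgdh, Psat1 and Asns. In WTHER2-2 it was lowest on replicate 4, where those genes were highest after normalization. Replicates 1 and 2 of MI6 shared a BeadChip and so did replicates 3 and 4, so that the arrays high for these genes came from both. The part of the cell cycle genes in the spread of the members was not tested. Leaving out MI6 replicate 1 changed the Phgdh difference between transgenes to -2.85.

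**Figure D3:**
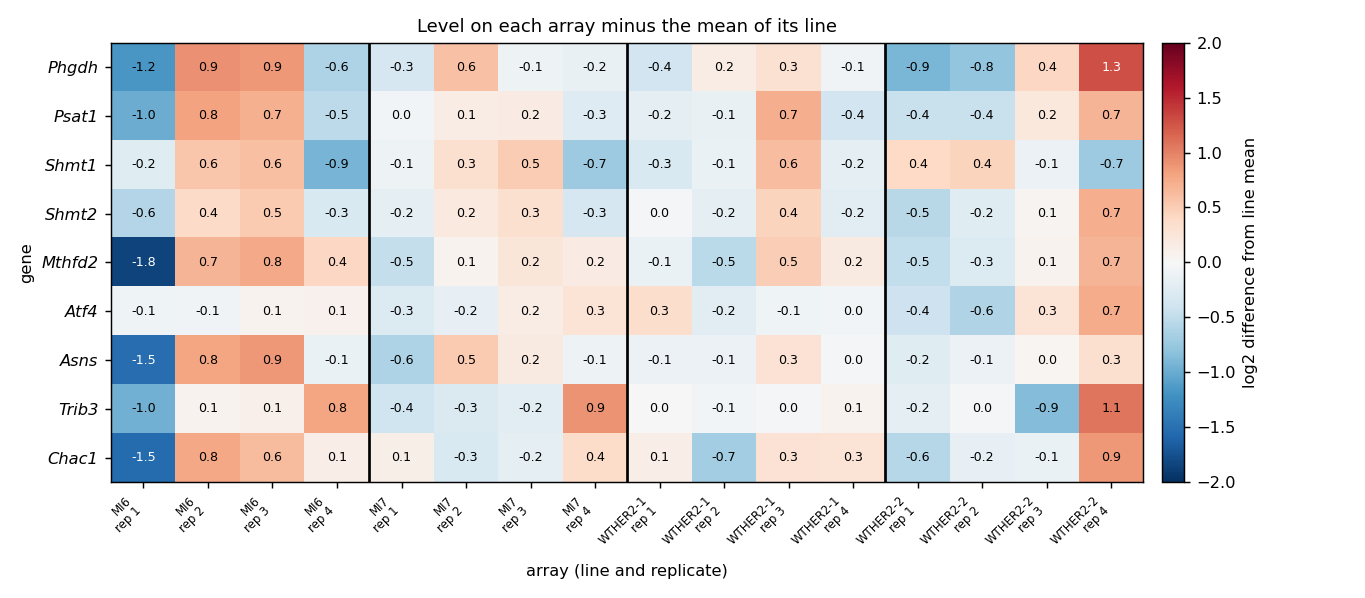
Level of each gene on each array minus the mean of its line, on the log2 scale (colour, with the value printed to 1 decimal), for the 4 arrays of each of the 4 lines. Blue cells fill most of the column of MI6 replicate 1 and red cells most of that of WTHER2-2 replicate 4, with Shmt1 the exception in WTHER2-2 replicate 4.

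Between the BeadChips of WTHER2-2 most members were higher on BeadChip 4. BeadChip 4 minus BeadChip 3 was 1.70 for Phgdh (means of 11.702 and 9.997), 1.01 for Atf4, 0.89 for Psat1, 0.79 for Shmt2, 0.76 for Mthfd2, 0.74 for Chac1, 0.36 for Asns and 0.20 for Trib3. Shmt1 went down by -0.85. A difference of at least 2-fold upward was reached by 2 of the 9 members, Phgdh and Atf4, and by 9.32% of all genes, with 20.8% past 2-fold in either direction. None of the 9 fell by that much, as 11.5% of all genes did. These are 2 arrays against 2 and were not tested. The epithelial and fibroblast marker means given above moved between the same arrays, and their part in these differences was not tested.

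The rest of the pathway, taken from lists, showed no common shift that separated the lines. Of 12 other measured folate and one-carbon genes 0 were separated, with 7 higher, as were 5614 of all 10724 genes. Their median difference was 0.18 between transgenes, against 0.03 for all genes. The thymidylate synthase gene Tyms differed by 0.88 ± 0.34 and the purine synthesis gene Atic by -0.71 ± 0.25 (limma adjusted p = 0.283 and 0.245). Aldh1l2, the mitochondrial formyltetrahydrofolate dehydrogenase, was called lower in WTHER2-1 than in WTHER2-2 (-3.11 ± 0.63, adjusted p = 0.00151), at 7.85 ± 0.28 and 10.96 ± 1.60. The methionine synthase reductase Mtrr was called higher (1.38 ± 0.25), detected on 4 arrays of WTHER2-1 and 1 of WTHER2-2. Of 8 measured genes that use serine, glycine or cysteine 0 were separated (median 0.10). The serine palmitoyltransferase subunit Sptlc2 differed by 0.71 ± 0.29 between transgenes (limma adjusted p = 0.29). It was detected on all 8 d16HER2 arrays, on 2 of WTHER2-1 and on 0 of WTHER2-2. The glycine methyltransferase Gnmt, detected on no d16HER2 array, was at least 1.34-fold lower there (adjusted p = 0.295). Gcat, which acts in threonine breakdown to glycine (-1.15 ± 0.28), and the phosphatidylserine synthase Ptdss2 (-1.03 ± 0.15) were called lower in WTHER2-1 than in WTHER2-2.

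Regulators and partners of ATF4 lay mostly lower in the d16HER2 lines without a gene being separated. Of 15 measured, 13 had a lower mean, as did 5110 of all 10724 genes, and the median was -0.35. The list mean was 10.09 to 10.27 in MI6 and 10.10 to 10.21 in MI7. It was 10.23 to 10.55 in WTHER2-1 and 10.36 to 10.94 in WTHER2-2. Ddit3, the stress factor CHOP, averaged 10.08 ± 0.26 for MI6 and 9.74 ± 0.27 for MI7, against 10.77 ± 0.45 for WTHER2-1 and 12.79 ± 0.71 for WTHER2-2, a mean difference of -1.87 ± 0.73 (adjusted p = 0.282) and -1.89 at its other probe. Cebpg, a C/EBP partner of ATF4, differed by -0.98 ± 0.24 (adjusted p = 0.158), and by -0.29 at its other probe. Ddit3 (-2.01 ± 0.30) and the stress-induced Nupr1 (-2.07 ± 0.31) were called lower in WTHER2-1 than in WTHER2-2 (limma adjusted p = 0.000134 and 0.000128). They were among 5 such genes, with 2 called higher, where 7.7% of all genes were called lower and 8.17% higher. Of 16 measured other ATF4 targets, 12 had a lower mean in the d16HER2 lines, as did 5110 of all 10724 genes, and 0 were separated (median -0.45). The branched-chain aminotransferase Bcat1, detected on 1 of 8 d16HER2 arrays, differed by -2.30 ± 1.06 (limma adjusted p = 0.342). It averaged 5.42 for MI6 and 5.48 for MI7, against 6.27 for WTHER2-1 and 9.24 for WTHER2-2. The corneodesmosin gene Cdsn was detected on no d16HER2 array and on 6 of 8 WT HER2 arrays. Its d16HER2 mean was the lower one, with a lower bound of 2.05-fold (limma adjusted p = 0.0702). The median was 5.77 and the highest array 9.29 in WTHER2-2, against a median of 7.20 in WTHER2-1. The lowest WT HER2 array, at 5.22, lay close to the highest d16HER2 array, at 5.15. Between the WT HER2 lines 4 were called, all lower in WTHER2-1, where 7.7% of all genes were lower and 8.17% higher. Among them were Bcat1 (-2.97 ± 0.48) and the hormone gene Fgf21, detected in WTHER2-2 alone (7.74 ± 2.53). The WTHER2-2 arrays ran from 7.92 to 10.89 for Bcat1, and for Fgf21 their median was 7.02 and the highest 11.27. Values without the BeadChip 4 arrays were not taken for genes of the lists.

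Amino acid transporters held the separated genes of these lists. Of 10 measured, Slc7a7, a subunit of a transporter of cationic and neutral amino acids, was higher at 10.30 ± 0.46 for MI6 and 10.60 ± 0.41 for MI7, against 5.52 ± 0.47 for WTHER2-1 and 7.96 ± 1.42 for WTHER2-2, and so differed by 3.71 ± 0.89 (3.33 at its other probe). Slc7a3, a cationic amino acid transporter, was detected on 0 d16HER2 arrays and all 8 WT HER2 arrays, and was at least 3.32-fold lower. Neither passed the line-level test (limma adjusted p = 0.157 and 0.111). Slc7a7 (-2.45 ± 0.52) and the glycine transporter Slc6a9 (-2.02 ± 0.38) were called lower in WTHER2-1 than in WTHER2-2. The list's median was -0.48. Of 18 aminoacyl-tRNA synthetases, which charge transfer RNAs, 0 were separated and 14 had a lower mean, as did 5110 of all 10724 genes. The median was -0.16, with Aars at -0.52 ± 0.27 and Tars at -0.47 ± 0.44. The mean of this list was 10.48 to 10.85 on the WTHER2-1 arrays, within the MI6 range of 10.32 to 10.85. It was 10.40 to 10.63 in MI7 and 10.65 to 11.13 in WTHER2-2. Tars was called lower in WTHER2-1 than in WTHER2-2 (-1.02 ± 0.30, adjusted p = 0.0168). Chaperones and quality control genes of the endoplasmic reticulum leaned upward, with 13 of 15 higher, 0 separated and a median of 0.42. Of all 10724 genes, 5614 were higher. The cochaperone Dnajc3 differed by 1.06 ± 0.29 and the disulfide isomerase Pdia6 by 0.86 ± 0.21 (adjusted p = 0.18 and 0.162), while the other Pdia6 probe gave 0.23. Sel1l, a component of the degradation machinery there, was called lower in WTHER2-1 than in WTHER2-2 (-1.40 ± 0.17, adjusted p = 1.92e-05).

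**Figure D4:**
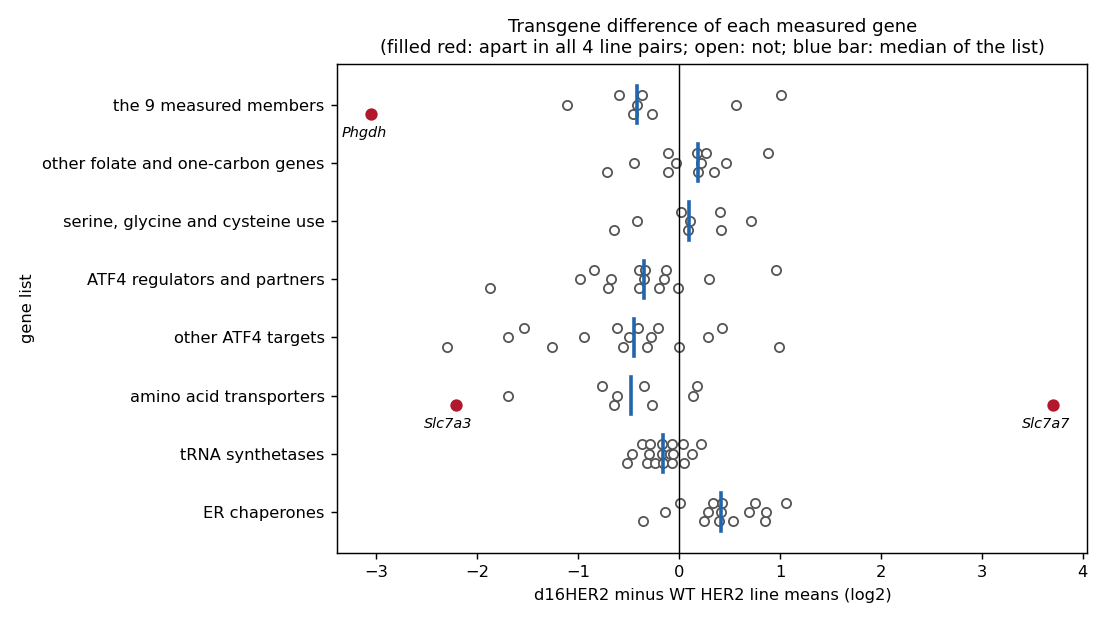
Mean difference between transgenes, d16HER2 minus WT HER2 line means on the log2 scale, of each measured gene of the 9 members and of the 7 lists. Filled red points were apart in all 4 line pairs, open points were not, and the blue bar is the median of a list. Phgdh at -3.05, Slc7a3 at -2.21 and Slc7a7 at 3.71 are the filled points.

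Profiles over the 16 arrays were compared by the root mean square distance between log2 values, each gene centred on its own mean, a description over arrays that share 4 lines. Among the members, Mthfd2 lay closest to Chac1 (0.30) and to Asns (0.30), and Phgdh lay at least 1.22 from every other member. Shmt1 lay at least 1.04 from every other. The genes outside the set that came closest to the mean profile of Phgdh, Psat1, Shmt2, Mthfd2, Asns, Trib3 and Chac1 were Atf5, a transcription factor (0.30), the alanyl-tRNA synthetase gene Aars (0.31), the threonyl-tRNA synthetase gene Tars (0.35), the alanine aminotransferase gene Gpt2 (0.36) and Aldh18a1, which encodes an enzyme of proline synthesis (0.37). All 5 belong to the lists above, which were chosen with earlier results of these data known. The standard deviation of that mean profile itself was 0.70. By single member, Atf5 was nearest to Mthfd2 (0.31) and to Chac1 (0.33), Tars to Asns (0.36) and Aldh18a1 to Shmt2 (0.25), followed by the methionyl-tRNA synthetase gene Mars1 (0.27). Phgdh, whose own standard deviation was 1.77, lay nearest to Gli3 (0.60) and Rab32 (0.64). Trib3 lay nearest to Wdr78 (0.43) and Abitram (0.44), and Atf4 to 1110038F14Rik (0.17) and Zcrb1 (0.19). Mars1 was the next nearest to Mthfd2 (0.40) and Asns (0.39), and Aars to Chac1 (0.40). Fen1 and Zranb3, genes of DNA replication and repair, were nearest to Shmt1 (0.40 and 0.32). Psat1 lay nearest to Ccsap (0.28) and Gas2l3 (0.32).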

How the data were processed

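Total RNA of 4 lines was hybridised on 16 Illumina mouse arrays, per the labels. The authors deposited raw intensities with detection p-values, per the file headers, and a normalized intensity table that the values show to be quantile-normalized, used as an alternative only. BeadStudio is named, without a version, in the submitters' processing notes. Raw intensities were corrected here with normexp (limma, negative controls from the detection p-values, offset 16), quantile-normalized and log2-transformed. Quantile normalization removes a change shared by most genes, and the offset shrinks differences of dim probes.

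Probes with a detection p under 0.05 on at least 4 of 16 arrays were kept (20152 probes). The annotation gave 1 symbol to 34885 probes, several to 18 and none to 10378, and the brightest kept probe stood for a gene (10724 genes). Of the listed genes, 2 were matched through older names. Limma was fitted to the 16 arrays with a mean per line, and to the 4 line means, with an intensity trend and Benjamini-Hochberg adjustment over all genes. Work used R 4.3.3, limma 3.58.1, statmod 1.5.0 and Python 3.11.15. The fits were run on simulated data with independent noise and no variation between lines or BeadChips. Such data cannot show how the fits behave where lines and BeadChips vary. A probe detected on no array of a side is given as a lower bound against the higher of its own signal and the dimmest detected signal per array. Precision is limited by the number of arrays.

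All 10 members are named. From each other list the text names up to 4 separated genes, or else the 2 largest differences, and up to 2 genes called between MI6 and MI7 or between WTHER2-1 and WTHER2-2; nearest profiles are the 2 per member and the 5 for their mean. Gnmt and Cdsn are among those. The members and lists were chosen with earlier results of these data known. Alternatives changed background correction, offset, normalization, detection filter, the probe of a gene, arrays, lines and BeadChip blocks.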

Additional observations from a re-analysis of the deposited data

Results flagged for a closer look

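Within lines, 5 of 68 sets of 4 arrays (17 detected probes of the members in 4 lines) held 1 array far from the other 3, where chance gives about 1 in 20. On MI6 replicate 1 the brightest Mthfd2 probe measured 9.68, against 11.95 to 12.28 on the other MI6 arrays. On MI7 replicate 1 the dimmer Mthfd2 probe was lowest at 7.58, against 8.02 to 8.09. On MI7 replicate 4 the brightest Trib3 probe was highest at 11.63, against 10.33 to 10.50, and the dimmer Shmt1 probe lowest at 5.65, against 7.55 to 7.59. On WTHER2-1 replicate 2 Chac1 was lowest at 10.73, against 11.57 to 11.72.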

How the results depend on the processing

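Phgdh stayed separated under all 30 alternatives, with differences between -3.50 and -2.56 and adjusted p of the line-level test between 0.0255 and 0.419. Single arrays could not be paired across lines because the labels number no replicates across them. MI6 and MI7 share BeadChips, and with the BeadChip as a fixed block, or within either BeadChip, 0 members were called between them. Where a line was left out, 2 line pairs remained, and a gene called in both counted as separated, Phgdh included. Separated members numbered 2 without line MI6 (Trib3 added) and 2 without line WTHER2-1 (Shmt1 added), and 1 in every leave-one-out fit. In the main setting Trib3 was already called in both pairs with MI7, and Shmt1 in both pairs with WTHER2-2. These additions are therefore not separate evidence. Members past the line-level test, 0 in the main setting, were 1 without line WTHER2-2, 1 with line as a random block and 3 without line WTHER2-1, and 0 on leaving out any single array. For WTHER2-1 against WTHER2-2 the 2 calls became 1 with no background correction, 1 in the authors' deposited normalized table, 1 with median scaling, 1 with the mean of probes and 1 without the BeadChip 4 arrays, always Shmt1, and 1 to 4 on leaving out single arrays. MI7 against WTHER2-1 had 1 with the BeadChip as a random block and 1 to 3 on leaving out single arrays, MI6 against WTHER2-2 had 2 to 3, MI6 against WTHER2-1 had 1 to 1, and MI7 against WTHER2-2 had 3 without the BeadChip 4 arrays and 4 to 7 on leaving out single arrays. MI6 against MI7 had 0 throughout. Alternatives for the 4 pairs of a d16HER2 and a WT HER2 line were chosen after seeing the data. Of 1692 values of single members under alternatives, 0 called values changed sign, 35 lost and 17 gained a call, and 33 values called in neither setting changed sign. Over all genes the line-level count of 53 ran from 0 to 2587, separated genes (592) from 409 to 1620, calls of MI6 against MI7 (127) from 30 to 263 and of WTHER2-1 against WTHER2-2 (1702) from 1159 to 2925. Those of MI6 and MI7 against WTHER2-1 (1680 and 1557) reached 2851 and 2609 when probes were fitted in place of genes, and against WTHER2-2 (2135 and 2153) 3739 and 3693. With median scaling 63.9% of the calls in MI7 against WTHER2-2 were higher, against 52.8% in the main setting, and the median of all genes was 0.18. Some alternatives put fewer lines or more features into the fit, and the cause of these changes was not tested. Signal near background leaves Psph unmeasured here.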
